A study of Homo sapiens with 18 samples.

Results

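The aryl hydrocarbon receptor AHR and the proteins it works with were examined as 1 group of 9 genes: the receptor itself, its dimer partners ARNT and ARNT2, the chaperones HSP90AA1, HSP90AB1 and PTGES3, and the coactivators NCOA1, NCOA2 and EP300. A gene was taken where a probe set was annotated to its symbol alone, older synonyms included, and that rule uses no measured value. Of the 9 genes, 8 were measured, each by 1 probe set, among 15529 named genes on the array. HSP90AB1 had no probe set listed under its symbol alone and was not analysed here.

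AHR is a ligand-activated transcription factor of the bHLH-PAS family (basic helix-loop-helix proteins with PAS domains). Without ligand it is held in the cytoplasm by HSP90 chaperones, with PTGES3 (p23) as a co-chaperone. With ligand it moves to the nucleus, pairs with ARNT, binds DNA at sites with the core GCGTG and recruits coactivators such as NCOA1, NCOA2 and EP300. In glioma cells it is known as a receptor for products of tryptophan breakdown.

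The cells were U-87MG, a long-established line from a human glioblastoma, and their RNA was hybridised to 18 Affymetrix arrays in 6 groups of 3. Cells had been infected with lentivirus carrying either the empty vector pLX301 or pLX301-IL4I1, which drives IL4I1, an oxidase of aromatic amino acids that cells secrete, and had been selected with puromycin. They also carried a stable lentiviral shERWOOD UltramiR hairpin, either the non-targeting control (shCtrl) or 1 of 2 hairpins against AHR (shAHR1 and shAHR2). The groups were therefore shCtrl, shAHR1 and shAHR2 with the empty vector, and the same 3 hairpins with IL4I1, and the study compared IL4I1 cells of each hairpin with shCtrl cells without IL4I1. All groups shared the vector backbone, the viral infection and 120 hours of culture, and the control hairpin was also a hairpin, so cells that never met a virus were not part of the comparison. The labels call the 3 arrays of a group biological replicates from independent experiments. They do not say how many infections or clones stand behind a line, so the p-values measure the spread between experiments on these lines.

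Array medians lay between 6.46 and 6.53 (log2), and pairs of arrays correlated at 0.865 to 0.954. Replicate 2 of shCtrl without IL4I1 varied most around the gene medians: its interquartile range was 0.529, and that of the other arrays 0.319 to 0.472. IL4I1 lay at 12.67 to 13.01 on the 9 arrays labelled IL4I1 and at 5.27 to 6.43 on the other 9. Of the astroglial and glioma markers, 5 of 11 measured lay at or above the median of all probe sets, 6.51, among them VIM at 12.23 and CD44 at 11.03. GFAP and NES, which define astroglial and neural progenitor cells, averaged 6.38 and 6.19 and lay below it. Markers of other cells at or above that median were AIF1 (1 of 3 immune genes), MBP (1 of 2 oligodendrocyte genes), MAP2 (1 of 3 neuronal genes) and KRT18 (1 of 3 epithelial genes), with 0 of 2 endothelial genes.

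AHR followed the hairpins on every array. In shCtrl cells without IL4I1 it was measured at 10.05, 10.13 and 10.23 on the log2 scale. Under shAHR1 it was 7.82, 8.11 and 7.66, and under shAHR2 7.78, 7.90 and 8.05. With IL4I1 the levels were 9.90, 9.84 and 10.33 in shCtrl cells, 8.04, 7.94 and 8.16 under shAHR1, and 7.74, 7.45 and 7.65 under shAHR2. The 12 arrays with an AHR hairpin spanned 7.45 to 8.16 and the 6 shCtrl arrays 9.84 to 10.33, so the sets did not overlap. In bulk RNA, fewer AHR-expressing cells and less AHR RNA per cell cannot be told apart.

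Without IL4I1, the log2 change of AHR was -2.27 ± 0.16 (SE) with shAHR1 and -2.23 ± 0.16 with shAHR2. This left 20.7% (95% interval 16.3 to 26.2) and 21.4% (16.8 to 27.1) of the shCtrl level. With IL4I1 the change was -1.98 ± 0.16 with shAHR1 and -2.41 ± 0.16 with shAHR2, leaving 25.4% (20.0 to 32.2) and 18.8% (14.8 to 23.8). The limma adjusted p was at most 1.7e-05 in these 4 comparisons, and an exact permutation test of each gave p = 0.1, the smallest that 3 arrays against 3 can give. Averaged over the 4 comparisons, AHR fell by 2.22 (95% interval -2.43 to -2.01) to 21.4% of its control level. AHR was called in all 14 settings tried for each of the 4 comparisons, with log2 changes between -2.50 and -1.82.

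**Figure D1:**
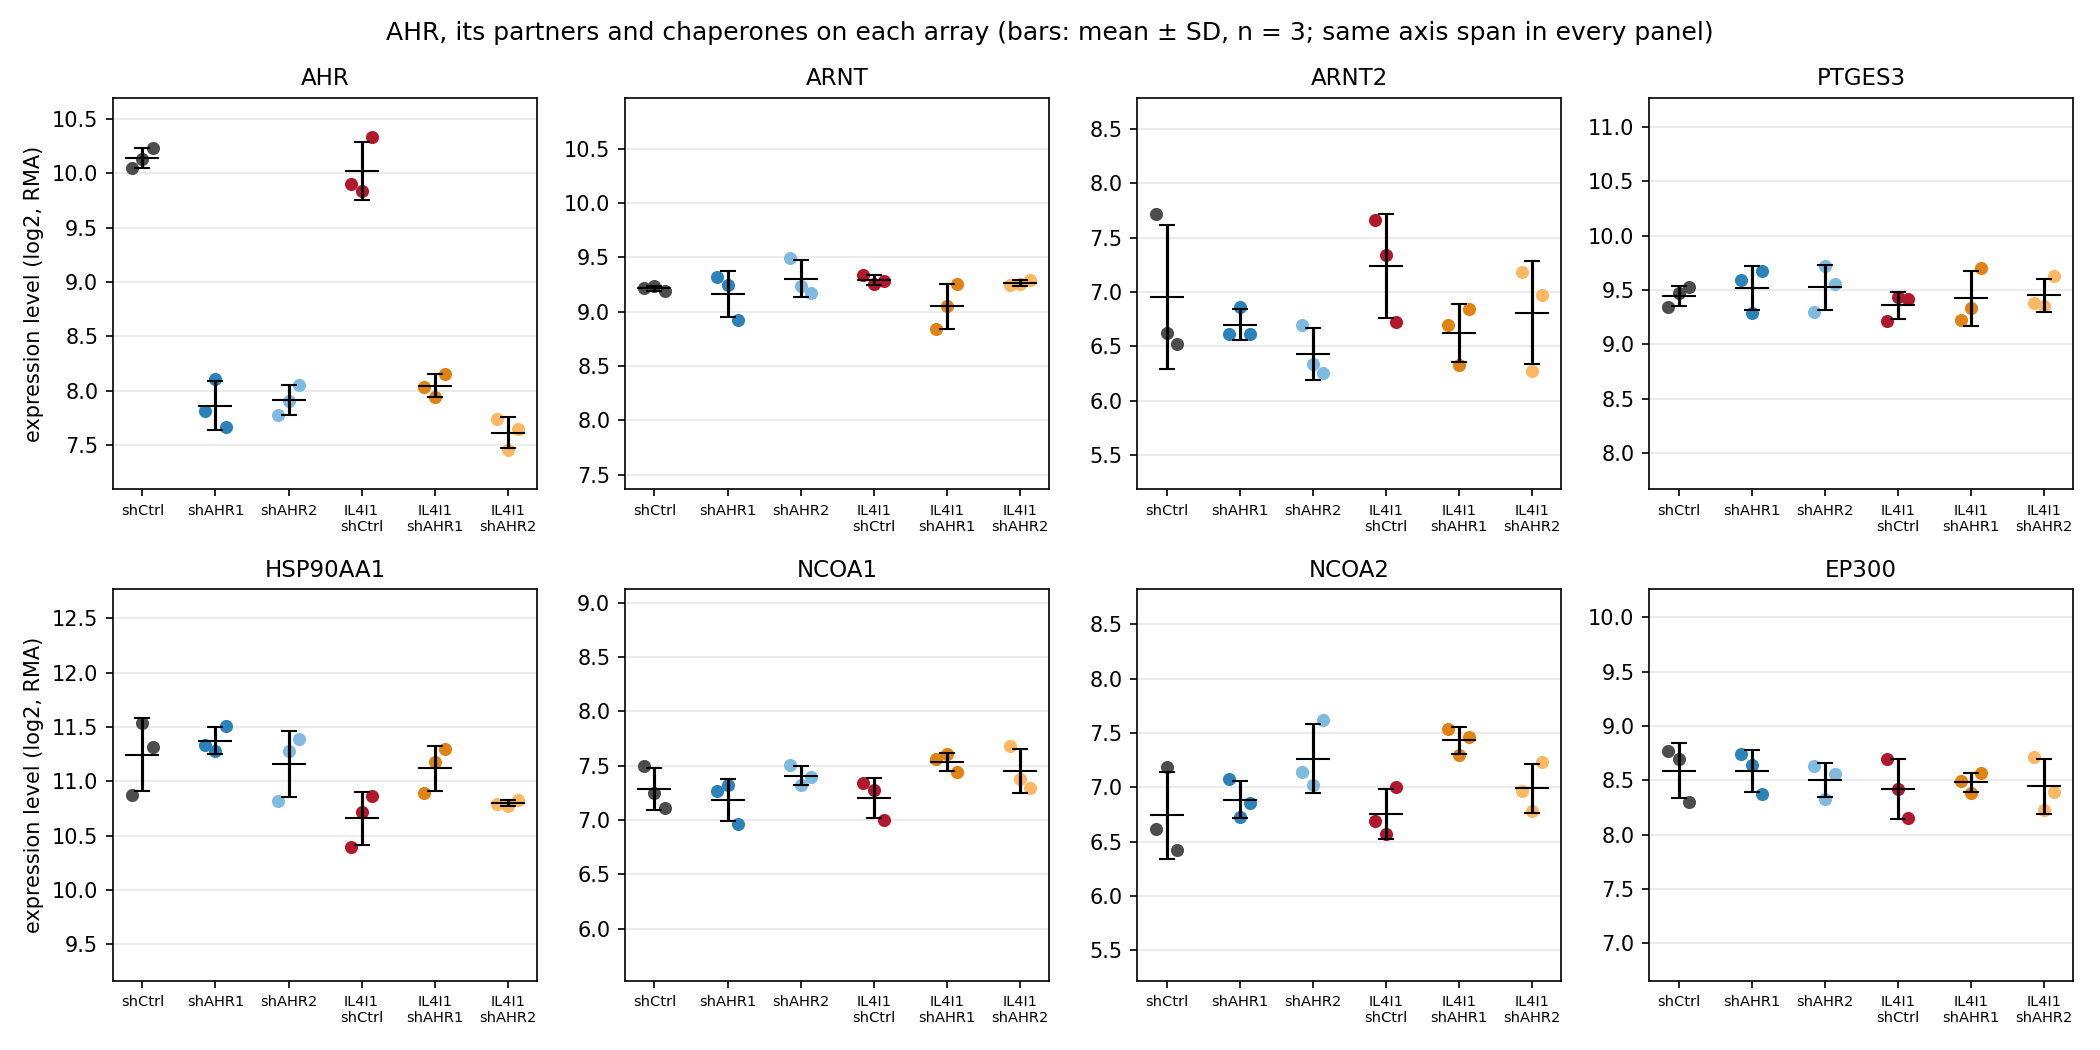
Log2 expression (y axis, the same span in each panel) of the 8 measured genes on all 18 arrays, by group (x axis, 3 arrays each); points are arrays, and bars are the mean and SD (n = 3). The AHR panel splits into 6 shCtrl arrays at 9.84 to 10.33 and 12 hairpin arrays at 7.45 to 8.16, while in the ARNT, PTGES3 and EP300 panels every array lies within 0.66, 0.50 and 0.62 of the others.

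The remaining AHR level did not differ past the threshold between the hairpins. Without IL4I1 the difference of shAHR2 minus shAHR1 was 0.05 (95% interval -0.29 to 0.39, adjusted p = 0.98), and their arrays overlapped. With IL4I1 it was -0.43 (-0.78 to -0.09, adjusted p = 0.55 by limma), and the shAHR2 arrays all lay below the shAHR1 arrays. By group mean the order ran from shCtrl at 10.14 ± 0.09 (SD, n = 3) and IL4I1 with shCtrl at 10.02 ± 0.27 down to IL4I1 with shAHR1 at 8.05 ± 0.11, shAHR2 at 7.91 ± 0.14, shAHR1 at 7.86 ± 0.23 and IL4I1 with shAHR2 at 7.61 ± 0.14. Neighbours in that order overlapped except across the step from shCtrl to the hairpins.

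IL4I1 did not change AHR past the threshold in any background. The log2 change was -0.11 (95% interval -0.46 to 0.23) in shCtrl cells, 0.18 (-0.16 to 0.53) in shAHR1 cells and -0.30 (-0.64 to 0.04) in shAHR2 cells, with limma adjusted p from 0.50 to 0.77. Averaged over the 3 backgrounds it was -0.08 (-0.27 to 0.12), so a mean rise or fall of AHR RNA by more than 0.27 lay outside the interval. The tests of whether IL4I1 acted differently on AHR under a hairpin gave 0.30 (-0.19 to 0.78) for shAHR1 and -0.19 (-0.67 to 0.30) for shAHR2.

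Among the 8 measured genes, AHR was the 1 called in each hairpin comparison, where its choice as the hairpins' target fixes the result. Of all genes on the array, 0.406% were called under shAHR1 and 0.734% under shAHR2 without IL4I1, 1.55% and 1.26% with IL4I1, and 5.36% in the average over the hairpins. Against shCtrl cells without IL4I1, the contrast of the study's design, AHR was again the 1 gene of 8 called: its change was -2.09 in IL4I1 cells with shAHR1 and -2.53 with shAHR2, beside 4.53% and 3.35% of all genes. With IL4I1, 0 of 8 were called in shCtrl cells, in shAHR1 cells or in shAHR2 cells, beside 4.58%, 1.31% and 0.612% of all genes. Between the hairpins 0 of 8 were called with and without IL4I1, beside 0.0% of all genes in both comparisons, where 1070 and 1131 genes had an unadjusted limma p under 0.05. The interaction of IL4I1 with the hairpins gave 0 of 8 for shAHR1, beside 0.0% of all genes (901 at an unadjusted p under 0.05), and 0 of 8 for shAHR2, beside 0.0129%. The comparisons share arrays: those without IL4I1 use the same shCtrl arrays, those with IL4I1 the same IL4I1 shCtrl arrays, and the averages use all 18.

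The array-wide counts of single comparisons moved with single arrays. With 1 array left out, the 711 genes called for IL4I1 in shCtrl cells ranged from 250 (without IL4I1 shCtrl replicate 1) to 1065 (without shCtrl replicate 1). The 204 in shAHR1 cells ranged from 34 (without shAHR1 replicate 3) to 211, and the 95 in shAHR2 cells from 22 (without shAHR2 replicate 3) to 335 (without shAHR2 replicate 1). Without IL4I1, the 63 genes called under shAHR1 ranged from 22 (without shAHR1 replicate 3) to 74 and the 114 under shAHR2 from 44 (without shCtrl replicate 2) to 109. With IL4I1, the 240 under shAHR1 ranged from 82 (without IL4I1 shCtrl replicate 1) to 205 and the 195 under shAHR2 from 75 (without IL4I1 shAHR2 replicate 3) to 168. Against shCtrl cells without IL4I1, the 704 in IL4I1 cells with shAHR1 ranged from 240 (without IL4I1 shAHR1 replicate 2) to 837 and the 520 with shAHR2 from 219 (without shCtrl replicate 2) to 720. The averages moved less: 832 to between 578 and 823 for the hairpins and 1953 to between 1588 and 2249 for IL4I1.

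ARNT, the partner with which AHR binds DNA, was steady across the groups. Its level was 9.22, 9.24 and 9.19 in shCtrl cells and 9.34, 9.26 and 9.28 with IL4I1. Under the hairpins it ranged from 8.84 to 9.49 over 12 arrays, on either side of the shCtrl arrays. The average hairpin change was -0.06 (95% interval -0.25 to 0.13) and the average IL4I1 change -0.02 (-0.20 to 0.15), with a lowest limma adjusted p of 0.54 over 15 comparisons. The knockdown of AHR thus came with no called change of ARNT, and averages beyond 0.25 in size lay outside both intervals.

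ARNT2, which can replace ARNT as a dimer partner and is known best from neurons and kidney, varied more between replicates. It was 7.71, 6.62 and 6.52 in shCtrl cells and 7.66, 7.34 and 6.72 in IL4I1 shCtrl cells. The 12 hairpin arrays lay between 6.25 and 7.18 and overlapped both. Replicate 1 of shCtrl and replicates 1 and 2 of IL4I1 shCtrl stood above every hairpin array, and the other shCtrl arrays did not. The group means of ARNT2, 6.43 to 7.24, lay around the median of all probe sets, 6.51, so its signal was low. The change was below 0 in all 4 hairpin comparisons, from -0.62 to -0.25, and averaged -0.46 (95% interval -0.86 to -0.05), with a limma adjusted p of 0.22. IL4I1 moved it by 0.20 (-0.19 to 0.58) on average.

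HSP90AA1, the stress-inducible HSP90 that holds unliganded AHR, was the 1 partner or chaperone called in any comparison. Without IL4I1 it was measured at 10.88, 11.54 and 11.32 in shCtrl cells, 11.33, 11.28 and 11.51 under shAHR1, and 10.81, 11.28 and 11.39 under shAHR2. With IL4I1 it was 10.39, 10.72 and 10.86, then 10.89, 11.17 and 11.29, then 10.79, 10.78 and 10.83 in the same order of hairpins. All 3 IL4I1 shCtrl arrays lay below the 3 shCtrl arrays, by as little as the step from 10.86 to 10.88, and the groups overlapped in shAHR1 and shAHR2 cells.

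With IL4I1, HSP90AA1 changed by -0.59 (95% interval -0.999 to -0.17, limma adjusted p = 0.10) in shCtrl cells, by -0.25 (-0.67 to 0.16) in shAHR1 cells and by -0.36 (-0.78 to 0.05) in shAHR2 cells. Averaged over the 3 backgrounds it fell by 0.40 ± 0.11 (SE; interval -0.64 to -0.16, adjusted p = 0.026), to 75.7% of the level without IL4I1. It was the 1 called gene of 8 in this average, beside 12.6% of all genes, so the count is near the share of the whole array. The call was lost when arrays were centred on 7 reference genes (-0.28, adjusted p = 0.18) and without any 1 of 6 arrays, namely shCtrl replicate 2, shAHR1 replicate 3, shAHR2 replicate 2 or 3, IL4I1 shCtrl replicate 1 and IL4I1 shAHR1 replicate 1 (log2 change -0.38 to -0.35, adjusted p 0.054 to 0.058). Across 25 settings HSP90AA1 was called in 17 and not in 8, which include a required size of at least 0.5. The limma adjusted p ran from 0.0061 to 0.18. The IL4I1 changes did not differ past the threshold between backgrounds: the interaction was 0.33 (-0.25 to 0.92) with shAHR1 and 0.22 (-0.36 to 0.81) with shAHR2. The AHR hairpins moved HSP90AA1 by 0.16 (-0.09 to 0.41) on average.

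Proliferation genes fell with IL4I1 in the same arrays. Of 16 listed, among them MKI67 and CDK1, 16 were called lower in the IL4I1 average, with a median change of -1.84, beside 1120 of all 15529 genes called lower. In single comparisons 13 were called lower in shCtrl cells, 7 in shAHR1 cells and 0 in shAHR2 cells, beside 398, 117 and 43 of all genes. The median changes there were -1.99, -1.98 and -1.55. The median of the list, centred per gene, lay at 0.11 to 1.73 where IL4I1 was absent (9 arrays) and at -1.63 to -0.18 where it was present (9 arrays). Its part in the HSP90AA1 result was not tested.

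**Figure D2:**
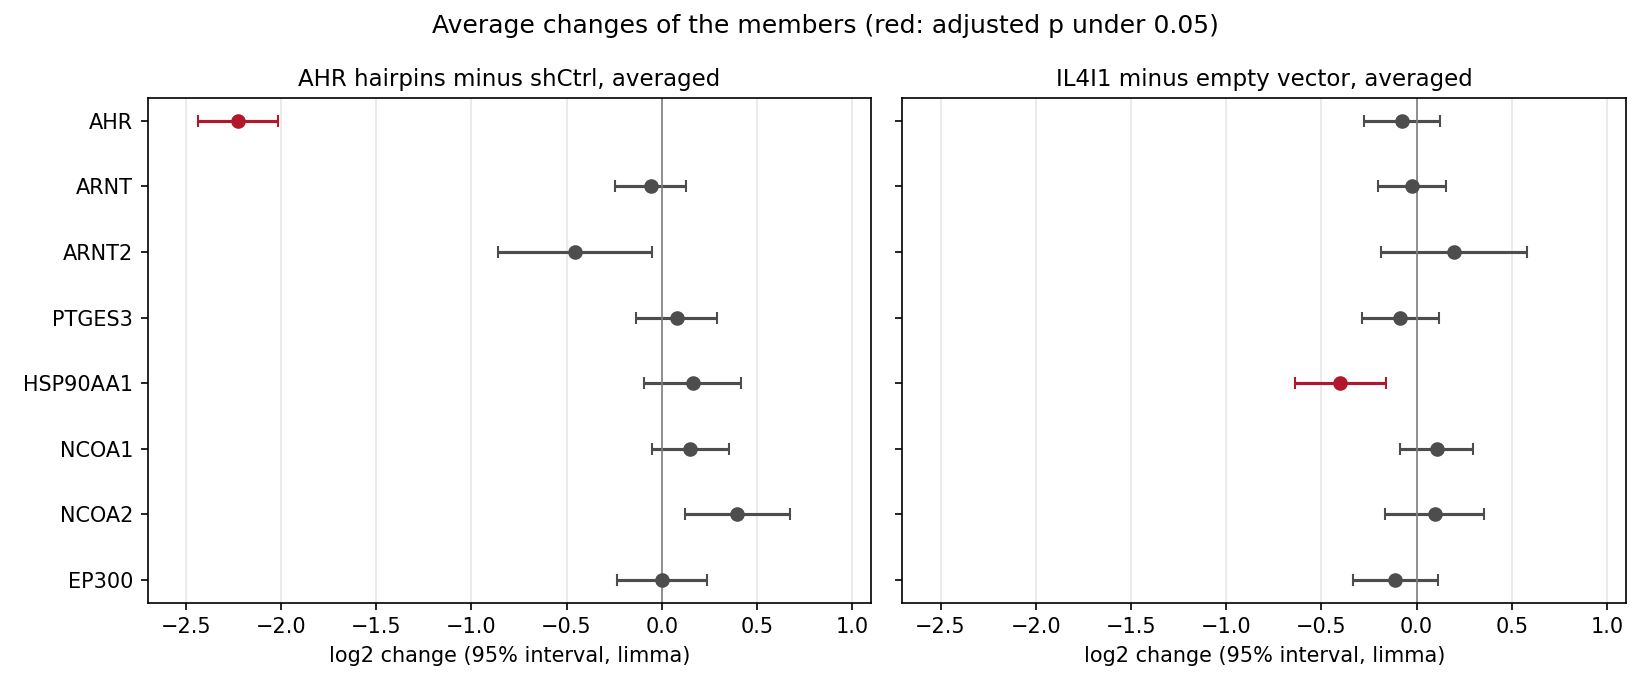
Average log2 change (x axis) of each of the 8 genes (y axis) over the 4 hairpin comparisons (left) and over the 3 IL4I1 comparisons (right); points are limma estimates, bars 95% intervals, and red marks an adjusted p under 0.05. AHR stands at -2.22 on the left and HSP90AA1 at -0.40 on the right, and the intervals of the 7 partners and chaperones on the left span -0.86 to 0.67.

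PTGES3, the p23 co-chaperone that stabilises HSP90 complexes with client proteins, had the narrowest span of changes among the 7 partners and chaperones. It ranged from 9.22 to 9.72 over all 18 arrays, and the lowest and highest of its 15 changes were -0.10 and 0.09. The average was 0.08 (95% interval -0.14 to 0.29) for the hairpins and -0.09 (-0.29 to 0.12) for IL4I1. Within groups PTGES3 and HSP90AA1 varied together across the 18 arrays (r = 0.70 after each group's mean was removed, a description over arrays that were normalised together).

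The sequences before the start sites of these chaperones are shown because their levels varied together within groups, while HSP90AA1 passed the threshold with IL4I1 and PTGES3 did not (the difference between the genes was not tested). RefSeq windows of 250 bases before the start (GRCh38.p14) were available for 6 of the 8 measured genes, 9 windows in all, and none of them is data of this study. Capitals mark the AHR-ARNT core GCGTG, which reads as CACGC on the other strand, and 2 inverted heat shock units, GAANNTTC or TTCNNGAA, the letters read by heat shock factor.
HSP90AA1 (chr14:102087045-102087294, minus strand): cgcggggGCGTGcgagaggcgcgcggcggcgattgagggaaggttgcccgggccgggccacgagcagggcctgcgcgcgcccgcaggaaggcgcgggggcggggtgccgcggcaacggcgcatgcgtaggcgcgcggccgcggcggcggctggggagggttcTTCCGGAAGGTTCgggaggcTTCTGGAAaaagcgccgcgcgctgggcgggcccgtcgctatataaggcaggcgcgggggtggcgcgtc
PTGES3 (chr12:56688285-56688534, minus strand): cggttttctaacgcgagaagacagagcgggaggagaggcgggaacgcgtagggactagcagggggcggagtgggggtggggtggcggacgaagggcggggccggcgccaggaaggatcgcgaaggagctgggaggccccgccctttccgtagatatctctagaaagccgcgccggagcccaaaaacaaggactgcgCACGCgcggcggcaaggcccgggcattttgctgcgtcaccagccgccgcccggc
The HSP90AA1 window holds the core at position -243 and the heat shock letters at -88, -83 and -68, counted from the start to the first base of the match; the first pair of these overlap in the letters GAA. The PTGES3 window holds the core at -54 and no heat shock letters. A second HSP90AA1 window, further upstream, holds the core at -135. The windows of AHR, ARNT, NCOA1 and EP300 hold neither motif on either strand. Of 35114 windows of this length in the genome table, 32.2% hold the core and 11.6% the heat shock letters, so a core match is common, and a match is a description of letters, not of binding.

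NCOA2, a p160 coactivator that links nuclear receptors and AHR to histone acetylation, was higher on average under the hairpins but did not pass the threshold. It was 6.61, 7.19 and 6.42 in shCtrl cells, 7.07, 6.73 and 6.86 under shAHR1, and 7.14, 7.02 and 7.62 under shAHR2. With IL4I1 it was 6.69, 6.57 and 7.01 in shCtrl cells, 7.54, 7.29 and 7.46 under shAHR1, and 6.96, 6.78 and 7.23 under shAHR2. The IL4I1 shAHR1 arrays lay above all 3 IL4I1 shCtrl arrays, and the other hairpin groups overlapped their controls.

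The 4 hairpin changes of NCOA2 were 0.15, 0.52, 0.68 and 0.24, and their average was 0.40 (95% interval 0.12 to 0.67, limma adjusted p = 0.097). Leaving out shCtrl replicate 2, the array with the widest spread and the highest NCOA2 level of its group, gave 0.51 and an adjusted p of 0.029. Across 25 settings the average ranged from 0.32 to 0.51 with adjusted p from 0.029 to 0.23. IL4I1 moved NCOA2 by 0.09 (-0.16 to 0.35) on average. The single IL4I1 changes ran in different directions: 0.01 in shCtrl cells, 0.54 (0.09 to 0.99, limma adjusted p = 0.25) in shAHR1 cells and -0.27 in shAHR2 cells. None of them was called. In IL4I1 cells with shAHR1 against shCtrl without IL4I1 the NCOA2 change was 0.69 (0.24 to 1.14, adjusted p = 0.079).

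NCOA1, the related p160 coactivator, lay between 6.96 and 7.68 over the 18 arrays. Its average hairpin change was 0.15 (95% interval -0.05 to 0.35) and its average IL4I1 change 0.10 (-0.09 to 0.30). The single IL4I1 changes of NCOA1 were -0.08 in shCtrl cells, 0.35 (0.02 to 0.68) in shAHR1 cells and 0.04 in shAHR2 cells. EP300, the acetyltransferase that p160 proteins bring to promoters, lay between 8.15 and 8.77. Its averages were 0.00 (-0.24 to 0.24) and -0.11 (-0.33 to 0.11). Both genes stayed below the threshold in all 15 comparisons, with lowest limma adjusted p of 0.34 for NCOA1 and 0.56 for EP300.

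**Figure D3:**
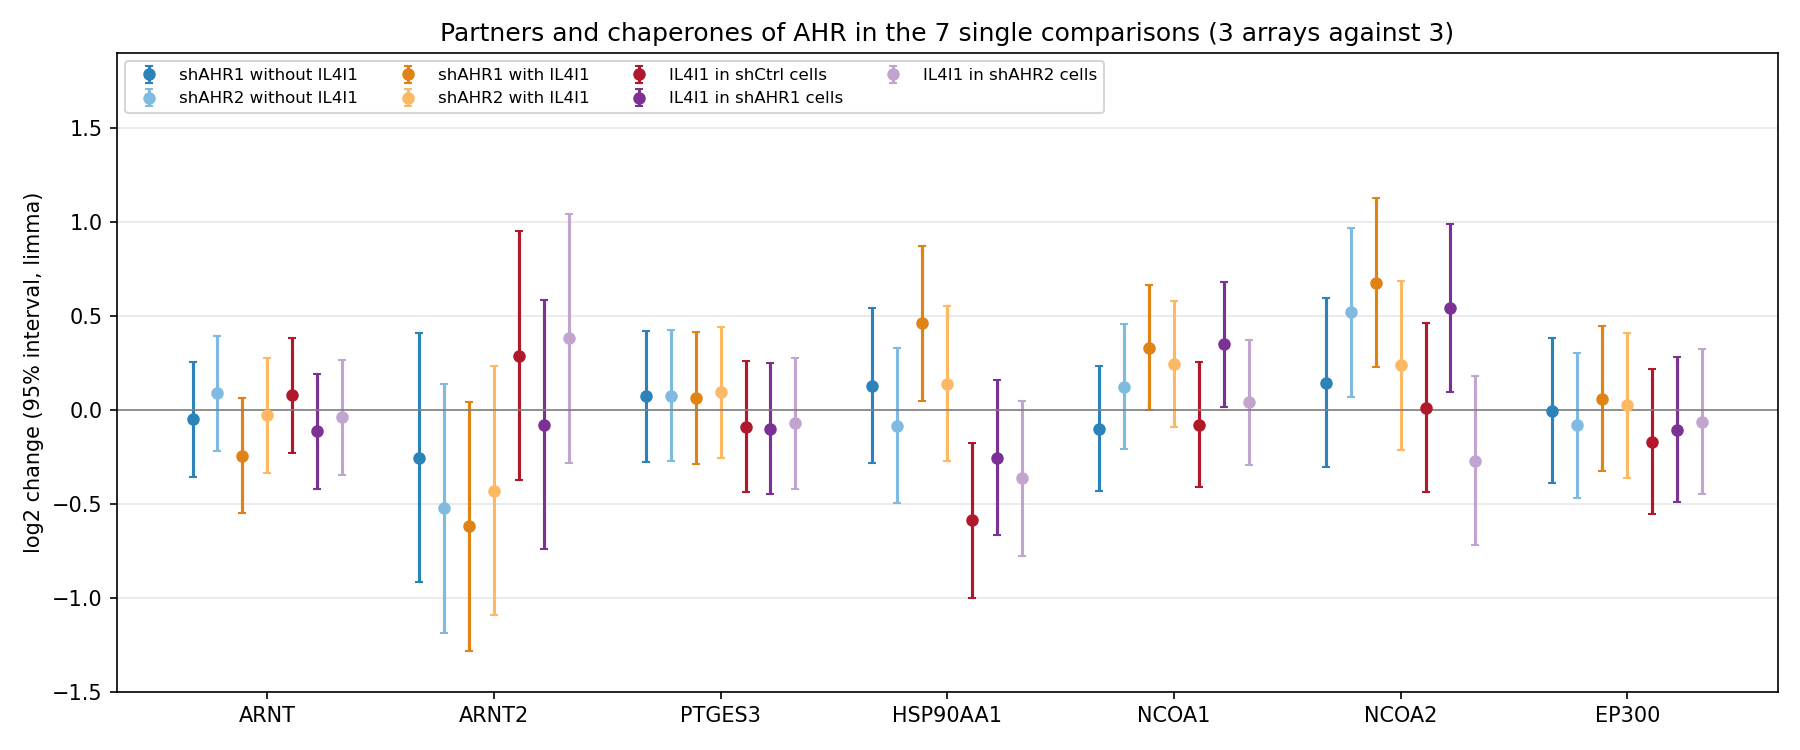
Log2 change (y axis) of the 7 partners and chaperones (x axis) in 7 single comparisons of 3 arrays against 3, by colour; points are limma estimates and bars 95% intervals. In these comparisons 0 of the 7 genes were called, and the lowest adjusted p was 0.10, for HSP90AA1 with IL4I1 in shCtrl cells.

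With group means removed, NCOA1 and EP300 had r = 0.82 and ARNT2 and EP300 r = 0.75 over 18 arrays, while HSP90AA1 ran against ARNT2 (r = -0.66) and NCOA1 (r = -0.63). NCOA2 had r = -0.18 with NCOA1, 0.22 with EP300, -0.15 with ARNT2, 0.41 with HSP90AA1 and 0.19 with PTGES3. These are descriptions of replicate-to-replicate variation in arrays normalised together, with no test.

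Of the 6 measured genes of the AHR feedback and readout list, 3 were called lower in the hairpin average and 4 higher in the IL4I1 average. TIPARP, an ADP-ribosyltransferase that promotes AHR turnover, fell by 1.05 on average under the hairpins (limma adjusted p = 3.8e-05) and rose by 0.64 with IL4I1 (adjusted p = 0.00051). In IL4I1 cells it averaged 9.21 ± 0.20 with shCtrl against 7.11 ± 0.32 with shAHR1 and 7.84 ± 0.12 with shAHR2 (SD, n = 3), and these groups did not overlap. The single comparisons of TIPARP were not all called. Its IL4I1 change was 1.55 in shCtrl cells (limma adjusted p = 0.00018), -0.06 in shAHR1 cells (0.94) and 0.42 in shAHR2 cells (0.34), so of these 3 it was called in shCtrl cells alone. Without IL4I1 the hairpin changes were -0.49 (adjusted p = 0.29) and -0.24 (0.69), neither called, and with IL4I1 they were -2.10 and -1.37, both called. The tests of the difference itself, the interactions, were not called (limma adjusted p = 0.077 for shAHR1 and 0.64 for shAHR2). AHRR, the repressor that competes with AHR for ARNT, fell by 0.86 in the hairpin average and rose by 0.79 in the IL4I1 average. Its fall was called under shAHR1, at -1.27 without IL4I1 and -1.15 with it. Under shAHR2 it was not called (-0.56, limma adjusted p = 0.17, and -0.45, 0.27). CYP1B1, a cytochrome P450, fell by 1.15 and rose by 1.12 in the same averages. It too was called lower under shAHR1 (-1.40 and -1.37) and not under shAHR2 (-0.83, adjusted p = 0.21, and -1.02, 0.088). The rise with IL4I1 remained past the threshold in shAHR1 cells for AHRR (0.84) and CYP1B1 (1.20), where AHR was at 25.4% of the IL4I1 shCtrl level, but not for TIPARP. In shAHR2 cells AHRR was called (0.81, limma adjusted p = 0.042) and CYP1B1 was not (0.98, adjusted p = 0.12). The interactions of IL4I1 with shAHR1 and shAHR2 were 0.13 and 0.11 for AHRR and 0.02 and -0.20 for CYP1B1, none called.

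**Figure D4:**
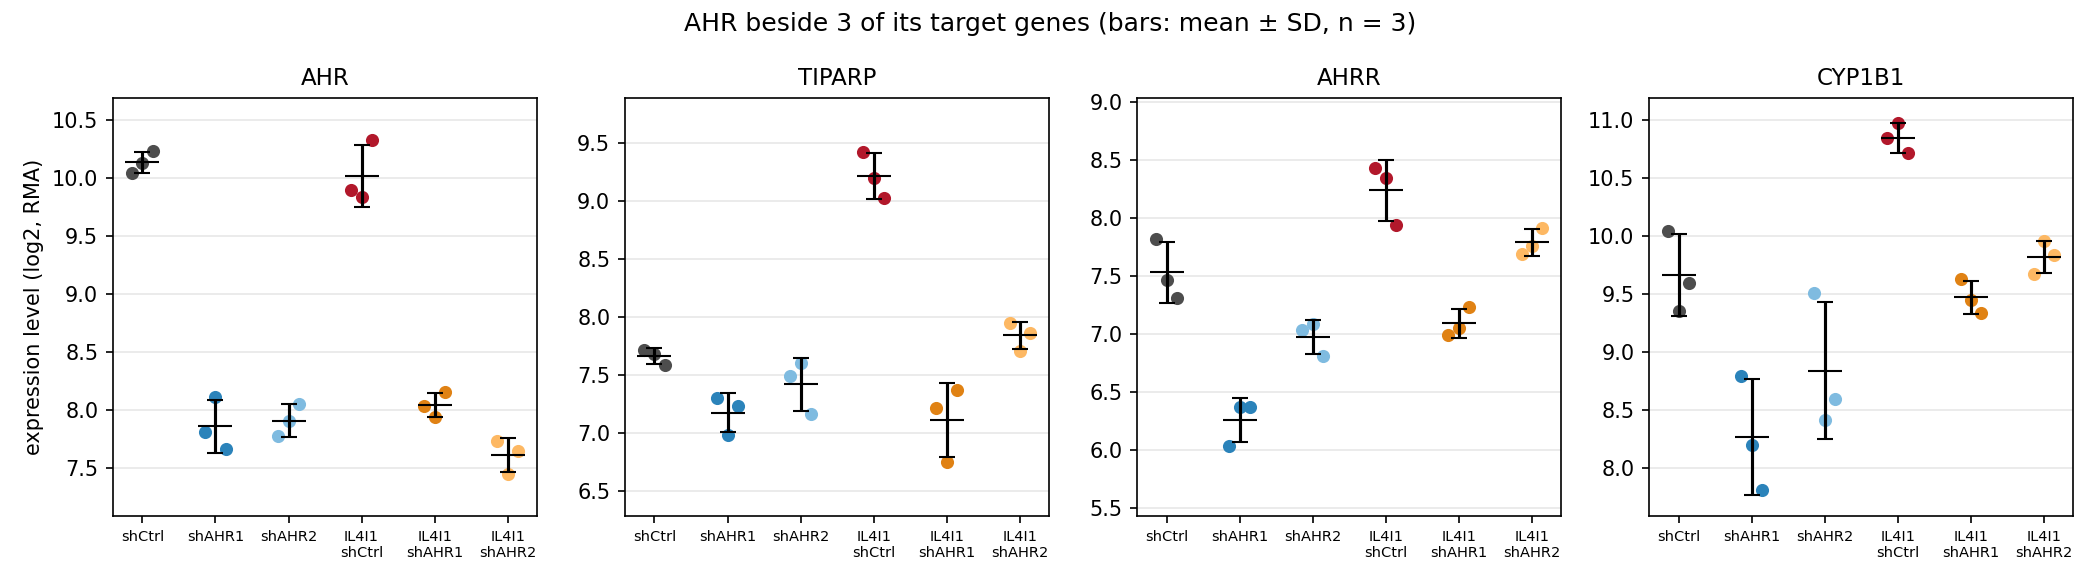
Log2 expression (y axis, the same span in each panel) of AHR, TIPARP, AHRR and CYP1B1 on each array by group (x axis); points are arrays, bars the mean and SD (n = 3). AHR splits by hairpin alone, while TIPARP is highest in the 3 IL4I1 shCtrl arrays, from 9.03 to 9.42.

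The wider pathway, 53 measured genes in 5 lists, was called in 7 genes in the hairpin average and 9 in the IL4I1 average, 13.2% and 17.0% of them, beside the 5.36% and 12.6% of all genes given above. The feedback and readout list gave 3 of these 7 and 4 of these 9. The lists were chosen with earlier results of these data known, so the shares are a description and no test of enrichment. In each of the other lists, 0 to 2 genes were called in either average, beside the same array-wide shares. Such counts are no result about a list. Of 14 measured co-chaperones and HSP90 relatives, DNAJB1, an HSP40 that loads clients onto HSP70, was the 1 called. It rose by 0.32 in the hairpin average (limma adjusted p = 0.047), with no single hairpin comparison called. The list's median change with IL4I1 was -0.16 against 0.01 over all genes, with 0 of 14 called. Of 15 bHLH-PAS relatives, BMAL1, a partner of CLOCK, fell by 0.45 in the hairpin average, again with no single hairpin comparison called. In the IL4I1 average NPAS2, a relative of CLOCK, rose by 0.55, and BMAL2, a relative of BMAL1, fell by 0.94. BMAL2 was called in no single IL4I1 comparison.

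Of 13 measured coactivators and corepressors, 2 rose in the hairpin average, beside 5.36% of all genes called in it. They were KAT2B, the acetyltransferase PCAF, by 0.87 (adjusted p = 0.011 by limma) and MED1, a Mediator subunit, by 0.44 (adjusted p = 0.034). In the IL4I1 average, KAT2B fell by 0.79 and HDAC1, a deacetylase of corepressor complexes, by 0.31, beside 12.6% of all genes called. No gene of this list was called in a single hairpin or IL4I1 comparison. The KAT2B level in IL4I1 shCtrl cells was 5.37 ± 0.03 (SD, n = 3) against 6.45 ± 0.63 in shCtrl cells. Both means lie below the median of all probe sets, 6.51. The level of 5.37 is also below the mean of IL4I1 in shCtrl cells with the empty vector, 5.84. KAT2B was thus dim in these groups, and the size of its changes is uncertain. Of the 6 measured genes of AHR export and turnover, TIPARP was the 1 called under the hairpins. With IL4I1, TIPARP rose and PARP1, a poly-ADP-ribosyltransferase, fell by 0.66. In the feedback and readout list, 4 of 6 rose in the IL4I1 average (TIPARP, AHRR, CYP1B1 and NQO1, a quinone reductase) and 3 of 6 fell in the hairpin average. Of those 4, NQO1 was the 1 not called in the hairpin average, at -0.03 there and 0.89 with IL4I1. Its rise with IL4I1 was not called in shCtrl cells (0.72, limma adjusted p = 0.054) and was called in shAHR1 cells (0.98) and shAHR2 cells (0.95). CYP1A2 and ALDH3A1 were called in neither average.

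**Figure D5:**
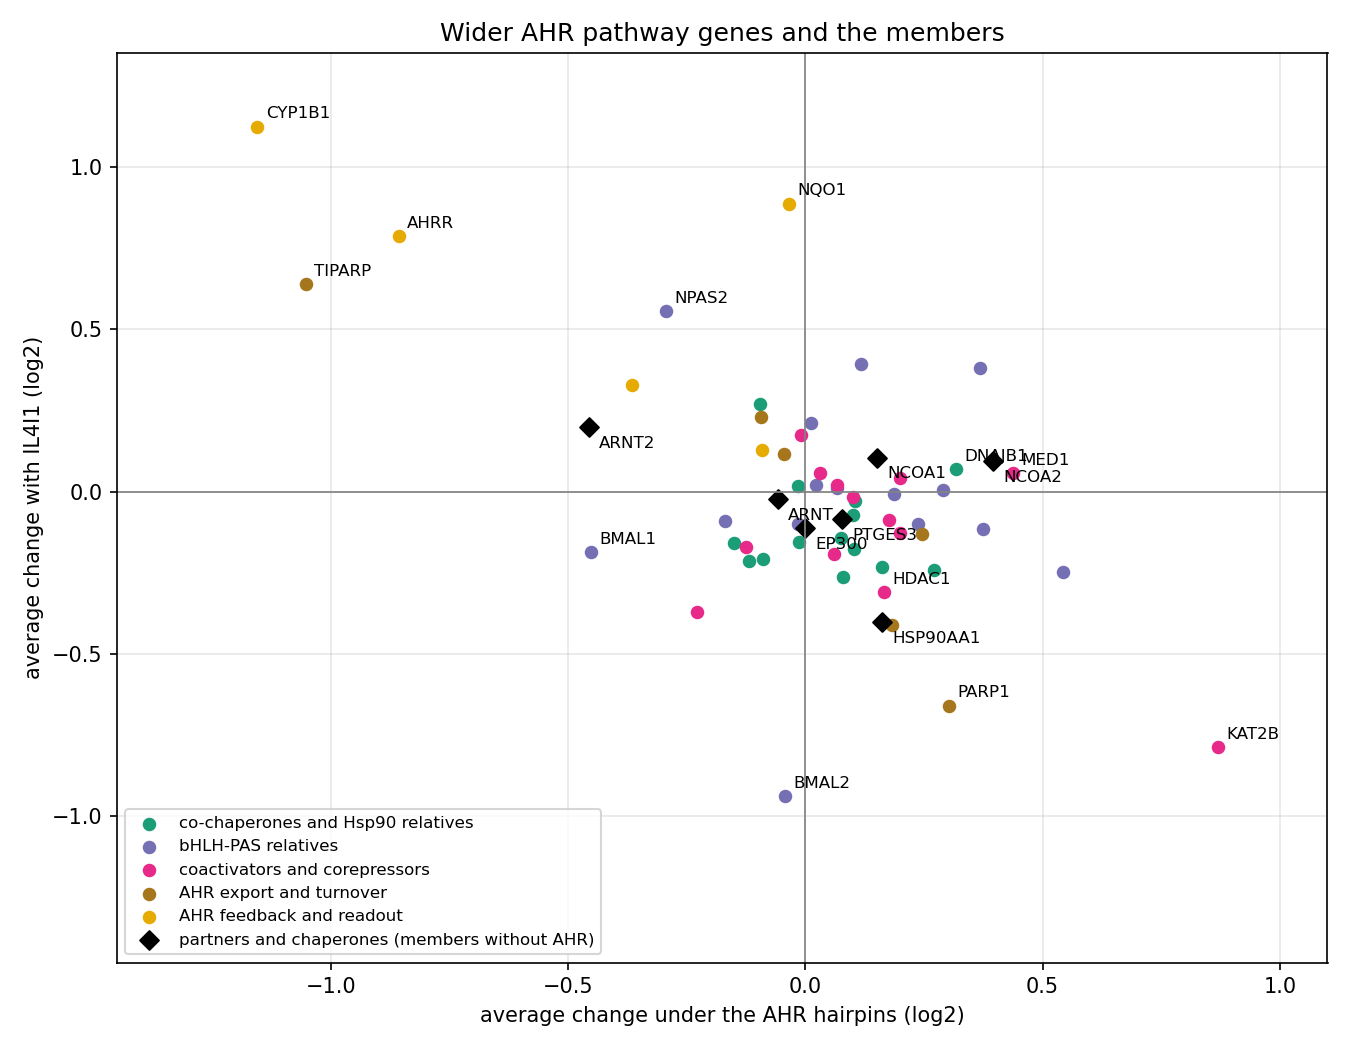
Average log2 change under the hairpins (x axis) against average log2 change with IL4I1 (y axis) for the 53 wider pathway genes, coloured by list, and the 7 partners and chaperones (black diamonds, all named); genes called in either average are named. TIPARP, AHRR and CYP1B1 lie at the upper left, with hairpin changes of -1.05, -0.86 and -1.15, and KAT2B at the lower right. The diamonds lie between -0.46 and 0.40 on the x axis and between -0.40 and 0.20 on the y axis.

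The genes whose levels ran most like AHR over the 18 arrays, among 9431 compared, were PALS1 (Pearson's r = 0.87), GK5, SYNJ2, CALB2 and PLEKHA1. Those that ran most opposite were EMP1 (r = -0.96), FBXL7, NNT, PRKAA1 and STK40. EMP1 lay at 10.55 to 10.82 on the 6 shCtrl arrays and at 11.20 to 11.55 on the 12 hairpin arrays. Arrays fall into 2 sets by AHR, so the likeness rests on that split: within the 12 hairpin arrays r ran from -0.58 to 0.56 for these 10 genes. Within the 6 shCtrl arrays it ran from -0.43 (FBXL7) to 0.83 (PRKAA1, which ran opposite over all 18). Genes were compared if their highest group mean reached the median of all probe sets, 6.51. GK5 and CALB2 met this on the shCtrl arrays, where AHR is high, and had medians of 6.22 and 6.10 on the hairpin arrays. HSP90AA1 was tracked most closely by CACYBP, with r = 0.93 over 18 arrays, 0.92 over the 12 hairpin arrays and 0.98 over the 6 shCtrl arrays. CACYBP lay at 8.15 to 8.77 with IL4I1 and at 8.16 to 9.13 without it. For the other genes the 2 closest were TMEM214 and RNASE4 for ARNT, RTL6 and HMBOX1 for ARNT2, RBM20 and NDUFV2 for PTGES3, NPR2 and EPAS1 for NCOA1, CHD2 and PTPRG for NCOA2, and PHC1 and HUWE1 for EP300. Each is a maximum over 9431 genes, with r from 0.72 to 0.90 over 18 arrays, and not all held in parts of the data. TMEM214 had r = 0.19 with ARNT over the 6 shCtrl arrays and RBM20 r = 0.13 with PTGES3 over the 6 group means. RTL6 kept r = 0.94 with ARNT2 over the shCtrl arrays.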

How the data were processed

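RNA of 18 cultures was measured on 1-colour arrays. The log2 values per probe set were deposited by the authors, made with oligo and RMA per the submitters' processing notes, and their versions are not stated in the sources used here. No label states the scale, which was read as log2 from the range of the values. Since RMA makes array distributions alike, a shift of all transcripts cannot be seen.

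Of 18913 probe sets, 15598 had 1 gene symbol, 870 several and 2445 none listed; 1173 old symbols were updated through RefSeq (GRCh38.p14), and 58 were not found there. The brightest probe set per gene was kept (66 genes had several). All 15529 genes entered 1 model of 6 group means (limma 3.58.1 in R 4.3.3, lmFit and eBayes), and a gene was called at a Benjamini-Hochberg adjusted p under 0.05. The fit was tested on simulated data. Standard errors of log2 changes between groups had a median of 0.220, limited by 3 arrays per group. Group medians and counts were computed in Python 3.11.15.

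Named genes were the members, up to 4 called genes of each wider list with the lowest adjusted p, the 5 most and 5 least like AHR by Pearson's r, and the 2 most like each other member. Likeness was taken among the 9431 genes whose highest group mean reached the median of all probe sets. Members and lists were chosen with earlier results of these data known. Alternatives changed the samples fitted, variance moderation, dim genes, probe sets, normalization, replicates and a size limit.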

Additional observations from a re-analysis of the deposited data

How the results depend on the processing

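The precision is limited by 3 arrays per group. Of the changes of the 8 genes and the counts of calls, recomputed under each alternative, none reversed past the threshold, and 121 of 1811 uncalled changes took the other sign without a call. The HSP90AA1 average with IL4I1 was -0.40 but not called when a size of at least 0.5 was also required, and -0.28 with centring on the 7 reference genes, which moved the median change of all genes to 0.13 from 0.01; with 1 array left out it ranged from -0.46 to -0.35. The number of the 8 genes called in that average was 0 under the size limit and under reference centring, and 0 to 1 with 1 array left out. With IL4I1 in shCtrl cells the number was 1 (HSP90AA1) under the replicate block and under trend and robust moderation, and 0 to 1 with 1 array left out; in the replicate block HSP90AA1 had -0.59 (limma adjusted p = 0.033). No other call among the 8 genes changed under the replicate block. In the hairpin average 1 to 2 genes were called with 1 array left out (NCOA2 without shCtrl replicate 2). In IL4I1 cells with shAHR1 against shCtrl without IL4I1, 2 genes were called (NCOA2 too) with reference centring and without dim genes, and 1 to 2 with 1 array left out. The wider pathway genes called in the hairpin average were 4 under the size limit and under reference centring, and 4 to 7 with 1 array left out. Fitting only the compared groups does not apply to the averages, which use all groups. By Spearman's rho 2 and by group means 3 of the 10 genes most and least like AHR were shared with the 10 by Pearson's r. Replicate numbers were not taken as pairing the arrays: 12 of 45 same-numbered pairs of arrays had deviations correlated over 0.1, and 13 of 18 arrays correlated best with their own number, a hint from the data and not from the design. Over all genes the replicate block moved the calls for IL4I1 in shAHR1 cells from 204 to 372 and in shAHR2 cells from 95 to 235. Over all genes, the IL4I1 average called 833 higher and 1120 lower, and with reference centring 1380 higher and 511 lower; the hairpin average called 532 higher and 300 lower, and 406 and 158. In shCtrl cells IL4I1 called 313 higher and 398 lower, against 547 and 133 with reference centring and 50 and 44 when the 2 groups were fitted alone.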
